A study of Homo sapiens with 6 samples.

Results

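The Aicardi-Goutières nucleic acid enzymes are 7 genes of the human genome, ADAR, SAMHD1, TREX1, RNASEH2A, RNASEH2B, RNASEH2C and LSM11, chosen by symbol among the 60617 genes of a count table, where each matched 1 row. They were compared between A549 cells with a YTHDF1 knockout (KO, 3 libraries) and wild-type A549 cells (WT, 3 libraries). A549 is a human lung cancer cell line, grown here without any treatment named in the labels, and YTHDF1 is a reader protein of N6-methyladenosine in mRNA. Total RNA was sequenced, and the libraries are called biological replicates. The sources used here do not say whether the KO cells were 1 clone or several or came from separate cultures, so p-values measure the spread between these libraries.

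Aicardi-Goutières syndrome is an inherited inflammatory disease in which cells make type I interferon without infection. Loss of any of the 7 genes causes it. Each encodes a protein that edits, degrades or processes nucleic acid, or limits the nucleotides for making it, and so keeps the cell's own RNA and DNA from being sensed as foreign. The question put to the data was whether any of these genes was lower in the KO libraries, whose interferon genes were high.

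Of the 5 genes that could be tested, 1 was lower in the KO libraries. RNASEH2B, a subunit of ribonuclease H2, was 24.5% lower (95% interval 14.4% to 33.4% lower). ADAR and SAMHD1 were higher by 2.82-fold and 17.8-fold, and LSM11 was higher by 1.35-fold. RNASEH2C did not pass the test, and its interval ran from 12.3% lower to 12.8% higher. TREX1 and RNASEH2A could not be tested, because the table lists TREX1 at 0 in every library and RNASEH2A at 3 to 15 counts. These calls rest on a Benjamini-Hochberg-adjusted p under 0.05 over 18505 genes in the quasi-likelihood fit of edgeR. In that test 26.3% of all genes were lower and 27.2% were higher in the KO libraries. The share lower among the 5 tested genes, 1 of 5, is thus near that of the whole table. The KO libraries lay all above or all below the WT libraries for 4 of the 5, and for 58.9% of all genes tested.

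The 5 tested genes had at least 361 counts in every library, so none entered the test through 1 group alone. Library totals ran from 32037107 to 40675628 counts in KO and from 27238817 to 40460782 counts in WT. YTHDF1 itself had 48.6, 48.6 and 47.1 CPM in the KO libraries, against 98.0, 104 and 96.4 CPM in the WT libraries, where CPM scales each library to the same total, with TMM factors. KRT8, a keratin of the epithelial line, was abundant in both groups, with 1797 ± 46.2 CPM in KO and 1576 ± 69.9 CPM in WT (SD, n = 3 each). Other epithelial markers were not as high. EPCAM had 1.94 ± 0.306 CPM in KO and 2.10 ± 0.419 CPM in WT (SD, n = 3 each). CDH1 was higher in KO, with 34.0 ± 0.602 CPM against 10.0 ± 1.69 CPM in WT (SD, n = 3 each). Of 6 immune cell markers 2 were tested and both were lower in KO. CD14 had 3.45 ± 0.537 CPM in KO and 11.1 ± 0.243 CPM in WT (SD, n = 3 each). CSF1R had 0.114 ± 0.177 CPM in KO and 0.803 ± 0.0541 CPM in WT (SD, n = 3 each). The immune list took 0.000311% to 0.000418% of counts in KO and 0.00119% to 0.00122% in WT. Among the markers not tested, CD3E was at 0 throughout, and PTPRC had 0 to 1 counts in KO and 0 to 7 counts in WT. Of 5 epithelial markers 3 were higher, none of 3 endothelial markers had enough counts to be tested, and of 4 fibroblast markers 3 were tested, 2 higher and 1 lower. By the same test 27.2% of all genes were higher and 26.3% were lower in KO. The part of these marker changes in the results was not tested. All 13 mitochondrially encoded mRNAs, often read as a sign of RNA quality, were lower in KO. They took 3.72% to 3.98% of counts in KO and 5.76% to 5.92% in WT. The falls were uneven, with log2 fold changes from -1.45 for MT-CO3 to -0.37 for MT-ND2. The part of this difference in the results below was not tested. In bulk RNA, fewer cells that express a gene and less RNA of it per cell cannot be told apart.

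**Figure D1:**
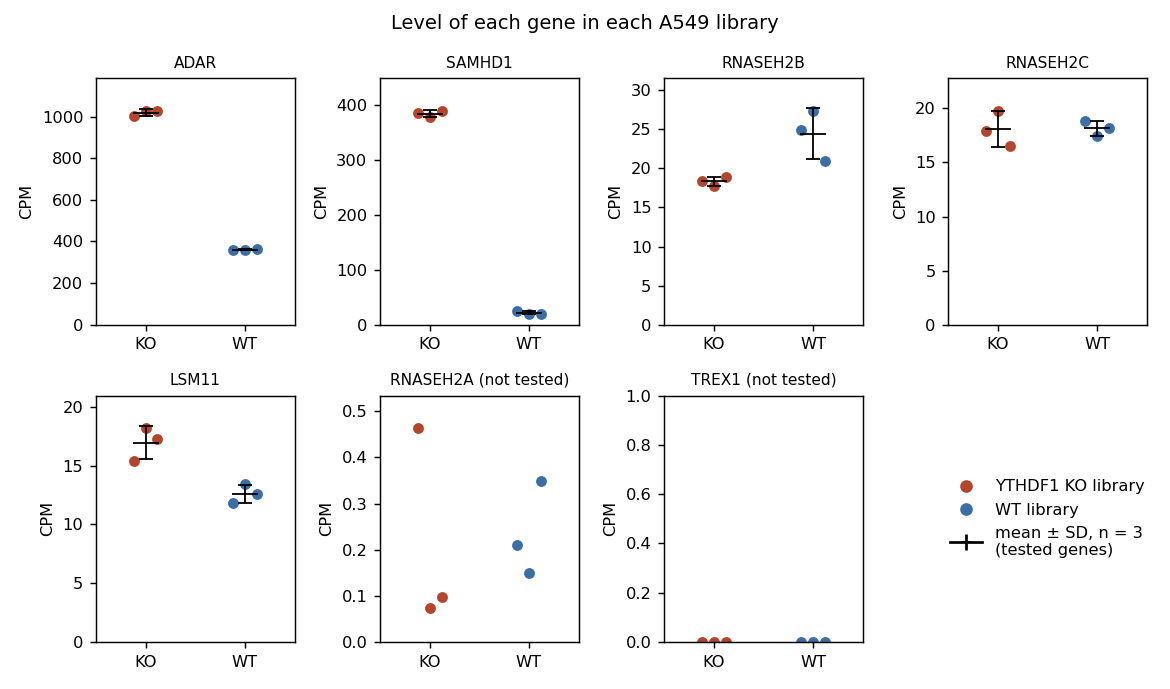
Level of each of the 7 genes in each A549 library, in CPM on a linear axis that starts at 0, with KO at the left and WT at the right of each panel; points are libraries and, for tested genes, bars are the mean ± SD of 3. The groups do not overlap for ADAR, SAMHD1, RNASEH2B and LSM11, while TREX1 is at 0 in all 6 libraries and RNASEH2A stays under 0.5 CPM.

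Ribonuclease H2 is a complex of 3 subunits that cuts the RNA strand of RNA-DNA hybrids and removes single ribonucleotides built into DNA. RNASEH2B encodes a non-catalytic subunit that ties the complex to the replication clamp PCNA. The gene (ENSG00000136104) spans chr13:50909678-51024120 on the plus strand (GENCODE release 29, GRCh38). Its annotated exons add up to 26291 bases over 46 transcripts, against 1629 bases in the principal transcript. A count per gene does not separate these transcripts. RNASEH2B had 18.4, 17.8 and 18.9 CPM in the KO libraries, against 24.9, 27.4 and 20.9 CPM in the WT libraries. All KO libraries lay below all WT libraries, which held for 29.1% of genes tested, and WT replicate 3 lay nearest to KO. RNASEH2B averaged 18.4 ± 0.565 CPM in KO and 24.4 ± 3.26 CPM in WT (SD, n = 3 each), and it fell by 0.40 on the log2 scale (SE 0.0888) with adjusted p = 0.000235 (edgeR, quasi-likelihood). With a fold of 1.2 built into the test the adjusted p was 0.0527, so a fall of more than 1.2-fold did not pass, where 15.2% of genes did. The log2 fold change of RNASEH2B was above that of 21.5% of all genes tested, so falls as large as this were common in the table.

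RNASEH2C (ENSG00000172922) encodes the other non-catalytic subunit and spans chr11:65714005-65720947 (minus strand). RNASEH2C had 18.0, 19.8 and 16.5 CPM in the KO libraries, against 18.9, 17.4 and 18.2 CPM in the WT libraries. The groups overlapped throughout. RNASEH2C averaged 18.1 ± 1.65 CPM in KO and 18.2 ± 0.711 CPM in WT (SD, n = 3 each), with a log2 fold change of -0.0078 (95% interval -0.19 to 0.17) and adjusted p = 0.952 (edgeR). Exons of KAT5, a histone acetyltransferase gene on the opposite strand, cover 38.4% of the bases of its principal transcript and 0% of its coding bases. KAT5 was higher in KO, at 13.8 ± 1.21 CPM against 10.9 ± 1.51 CPM in WT (SD, n = 3 each), with a log2 fold change of 0.34 and adjusted p = 0.0102 (edgeR).

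RNASEH2A encodes the catalytic subunit, and the table holds almost no counts for it. The gene (ENSG00000104889) spans chr19:12806556-12815201 (plus strand). RNASEH2A had 15, 3 and 4 counts in the KO libraries, against 8, 4 and 14 counts in the WT libraries. The groups overlapped, with 0.212 ± 0.219 CPM in KO and 0.236 ± 0.103 CPM in WT (SD, n = 3 each). With no filter on low counts the log2 fold change was -0.22 with adjusted p = 0.873 (edgeR), which gives no direction. THSD8, which starts upstream on the same strand, has annotated exons that run through RNASEH2A and cover 98.9% of its 897 coding bases, 40.8% of its principal transcript of 2753 bases and 30.8% of all its exonic bases. Most of that transcript is thus not shared, but the part not shared lies almost all outside the coding bases. The gene as a whole holds almost no counts. Of 2486 protein-coding genes with up to 50% of their exonic bases shared on the same strand, 173 (6.96%) were at 0 in every library, and the median total over the 6 libraries was 2394 counts. That grouping uses all exonic bases, not the coding bases alone. RNASEH2A had 22 counts over the KO libraries and 26 over the WT libraries. The part of the overlap in its low counts was not tested. THSD8 had 3, 2 and 4 counts in the KO libraries, against 0, 1 and 0 in the WT libraries, so the shared bases were credited to neither gene in any number. The first 180 coding bases of RNASEH2A, which lie on the plus strand within chr19:12806674-12807060 of GRCh38 and are read from the GENCODE 29 transcript, show this overlap. Capitals mark bases that also lie in an exon of THSD8, and the 10 bases in lower case do not.
RNASEH2A: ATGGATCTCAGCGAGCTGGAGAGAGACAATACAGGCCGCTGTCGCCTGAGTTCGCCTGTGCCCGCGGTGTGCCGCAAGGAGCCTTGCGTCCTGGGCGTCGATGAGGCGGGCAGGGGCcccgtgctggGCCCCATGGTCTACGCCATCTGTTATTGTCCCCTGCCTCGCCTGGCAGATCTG

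As ribonuclease H2 needs its 3 subunits together, their ratios were compared within each library, where scaling between libraries cancels. The log2 ratio of RNASEH2B to RNASEH2C per kilobase of principal transcript was 0.82, 0.62 and 0.97 in the KO libraries, against 1.18, 1.43 and 0.98 in the WT libraries. All KO values lay below all WT values. The lengths include the 38.4% of the RNASEH2C transcript under KAT5 exons, and the difference between groups does not depend on lengths. The mean difference was -0.39 with an exact two-sided permutation p of 0.1, the smallest that 3 against 3 allows, and 0.3 after Benjamini-Hochberg adjustment over 3 ratios. Ratios with RNASEH2A rest on its 3 to 15 counts and had exact permutation p-values of 0.8 and 0.6.

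TREX1 (ENSG00000213689), the main cytosolic DNA exonuclease, is a gene of a single coding exon at chr3:48465811-48467645 (plus strand). The table lists TREX1 at 0 in all 3 KO and all 3 WT libraries. In GENCODE 29, 100% of its exonic bases, and all of its 942 coding bases, also lie in exons of ATRIP, which encodes the partner protein of the checkpoint kinase ATR. The whole coding run of TREX1 occurs unbroken in 3 ATRIP transcripts. The first 180 coding bases are shown as the item on which this rests, from chr3:48466656-48466835 of GRCh38 on the plus strand, with capitals for bases that also lie in an exon of ATRIP.
TREX1: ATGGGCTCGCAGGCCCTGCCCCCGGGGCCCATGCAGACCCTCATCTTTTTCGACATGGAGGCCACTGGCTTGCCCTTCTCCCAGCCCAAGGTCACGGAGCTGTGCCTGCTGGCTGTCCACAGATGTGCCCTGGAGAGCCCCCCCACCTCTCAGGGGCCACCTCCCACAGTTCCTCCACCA

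A listing at 0 was common to genes placed this way. Of 272 protein-coding genes whose exonic bases all lie in exons of other genes on the same strand, 270 (99.3%) were at 0 in every library, as were 2374 of 16558 (14.3%) with no such overlap. The same held for overlap on the opposite strand. Of 17 protein-coding genes fully covered only on the opposite strand, 17 were at 0, although the labels name a stranded kit. The 0 of TREX1 therefore gives no level of its RNA in either group. ATRIP, whose remaining exons are its own, had 11.7, 11.2 and 12.3 CPM in the KO libraries, against 11.5, 10.9 and 10.4 CPM in the WT libraries, with a log2 fold change of 0.099 and adjusted p = 0.452 (edgeR). Its counts do not stand in for TREX1. SHISA5, whose annotated 3′ end lies 153 bases beyond TREX1, had 188 ± 9.70 CPM in KO and 112.5 ± 3.61 CPM in WT (SD, n = 3 each), a log2 rise of 0.74.

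**Figure D2:**
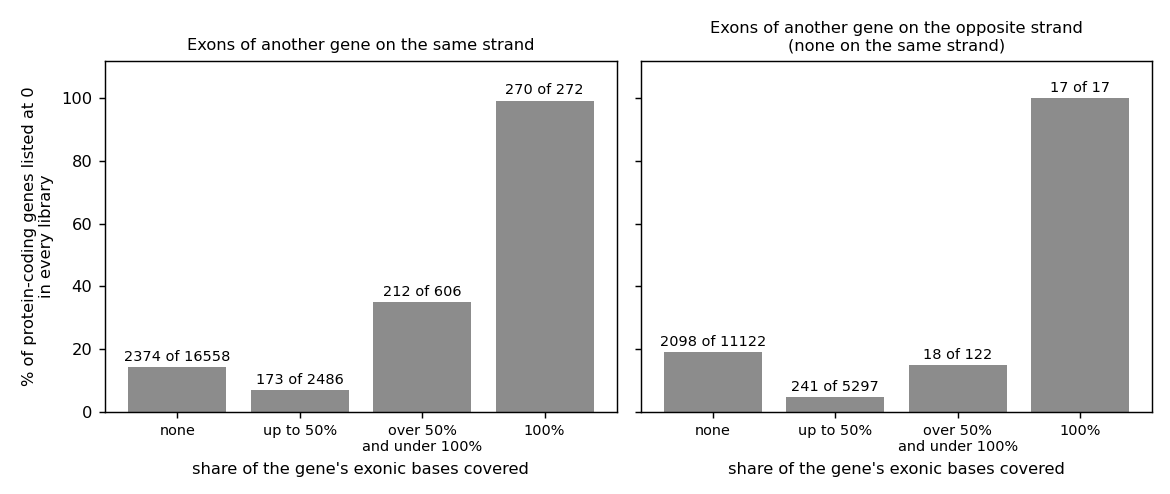
Share of protein-coding genes listed at 0 in every library, in percent, by how much of a gene's exonic sequence is also exon of another gene in GENCODE 29, on the same strand at the left and only on the opposite strand at the right; numbers above the bars are genes at 0 of genes in the bin. Nearly all fully covered genes are at 0 (270 of 272 and 17 of 17), and TREX1 is among them.

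SAMHD1 rose most among the 5 tested genes. It encodes a triphosphohydrolase that breaks down deoxynucleotides, limits the DNA supply of replicating viruses and acts at stalled replication forks. The gene (ENSG00000101347) spans chr20:36889773-36951901 (minus strand). SAMHD1 had 384, 378 and 389 CPM in the KO libraries, against 24.4, 19.6 and 20.2 CPM in the WT libraries. Every KO value was far above every WT value. SAMHD1 averaged 384 ± 5.68 CPM in KO and 21.4 ± 2.60 CPM in WT (SD, n = 3 each), a log2 fold change of 4.16 (SE 0.0598) with adjusted p = 2.07e-33 (edgeR). SAMHD1 had a larger log2 fold change than 99.1% of genes tested.

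ADAR encodes ADAR1, the enzyme that changes adenosine to inosine in double-stranded RNA and thereby keeps it from the sensor encoded by IFIH1. It has a short constitutive form and a long interferon-inducible form, and a count per gene does not separate them. The gene (ENSG00000160710) spans chr1:154582057-154628013 (minus strand). ADAR had 1000.3, 1029 and 1028 CPM in the KO libraries, against 357, 360.4 and 366 CPM in the WT libraries. The spread within each group was small beside the gap. ADAR averaged 1019 ± 16.3 CPM in KO and 361 ± 4.43 CPM in WT (SD, n = 3 each), a log2 fold change of 1.497 (SE 0.0387) with adjusted p = 5.88e-26 (edgeR). ADAR shares no exon with another gene in GENCODE 29, unlike TREX1, though the annotation behind the counts may differ. ADARB1, which encodes the related editing enzyme ADAR2, also rose, to 15.2 ± 1.06 CPM in KO against 5.69 ± 0.476 CPM in WT (SD, n = 3 each), with adjusted p = 1.90e-12 (edgeR); it was the 1 gene tested of 4 other editing family genes.

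The promoter window of SAMHD1 and 1 of the 3 of ADAR are shown because both genes were higher in KO, as the interferon response genes were. They are RefSeq windows on GRCh38.p14, from 250 bases before to 50 bases after a gene's start, and 10 such windows matched the 7 genes. The core of the interferon-stimulated response element (GAAA, then any 2 bases, then GAAA, on either strand) was in 0 of the 10 windows and in 3.57% of all 35116 windows. Counted by gene and not by window, 12 of 14 interferon response genes with a window held it in at least 1. The share by gene over all genes was not computed. The gamma-activated sequence (TTCNNNGAA) was in 0 of the 10 and in 7.66% of all windows, and the E2F core (TTTGGCGC) in 0 of the 10 and in 0.652%. The CCAAT box was in 7 of the 10 and in 34.6% of all windows. By gene, it was in a window of 4 of the 7, ADAR, SAMHD1, RNASEH2A and RNASEH2B, and the windows are not separate, since 2 of the 3 ADAR windows and both RNASEH2B windows overlap. Such matches describe letters in a window and show no bound factor, and a window without a match says nothing of sites elsewhere. The ADAR window that overlaps neither of the others, at chr1:154608748-154609047, held 1 CCAAT box and is not printed. Which window serves the constitutive or the inducible form of ADAR was not tested. Capitals below mark the CCAAT box on either strand, in SAMHD1 at chr20:36951659-36951958 and in the outermost ADAR window at chr1:154627948-154628247, both on the minus strand and written 5′ to 3′ along the gene.
SAMHD1: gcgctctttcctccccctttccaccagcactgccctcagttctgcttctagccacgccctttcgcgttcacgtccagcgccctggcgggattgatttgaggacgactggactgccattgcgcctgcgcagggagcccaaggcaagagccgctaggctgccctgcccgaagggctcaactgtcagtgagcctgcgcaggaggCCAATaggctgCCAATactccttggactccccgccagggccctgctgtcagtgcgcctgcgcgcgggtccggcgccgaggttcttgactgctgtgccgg
ADAR: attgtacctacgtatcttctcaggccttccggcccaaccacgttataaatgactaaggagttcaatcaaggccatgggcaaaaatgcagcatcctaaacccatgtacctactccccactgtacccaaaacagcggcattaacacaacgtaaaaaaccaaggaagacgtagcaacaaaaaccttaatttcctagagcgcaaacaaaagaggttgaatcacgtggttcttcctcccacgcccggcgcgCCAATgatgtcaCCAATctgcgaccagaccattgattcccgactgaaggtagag

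LSM11 encodes a protein of the U7 small nuclear ribonucleoprotein, which trims the ends of replication-dependent histone mRNAs. The gene (ENSG00000155858) spans chr5:157743695-157760709 (plus strand) and shares no exon with another gene in GENCODE 29. LSM11 had 15.4, 18.2 and 17.2 CPM in the KO libraries, against 11.8, 13.4 and 12.5 CPM in the WT libraries. The KO libraries lay above the WT libraries, as they did for 29.8% of genes tested. LSM11 averaged 17.0 ± 1.41 CPM in KO and 12.6 ± 0.777 CPM in WT (SD, n = 3 each), a log2 fold change of 0.43 (SE 0.0970) with adjusted p = 0.000289 (edgeR). The rise passed a built-in fold of 1.2 with an adjusted p of 0.0380, where 17.4% of genes were higher by that test, and did not pass a fold of 1.5. RNU7-1, the gene of the U7 RNA that LSM11 binds, was listed at 0 in every library. Exons of other genes cover 98.4% of its bases on the same strand and 100% on the opposite strand. The shares at 0 given above for overlap cover protein-coding genes, and RNU7-1 is a small nuclear RNA gene. This 0 is not taken as a level of the U7 RNA, and its cause was not tested.

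Levels between genes can be compared only per length. Per kilobase of principal transcript, ADAR stood at 153 ± 2.44 CPM in KO and 54.1 ± 0.665 CPM in WT (SD, n = 3 each). SAMHD1 took the second place in KO with 72.4 ± 1.07 CPM per kilobase and the fourth in WT with 4.04 ± 0.491. RNASEH2B had 11.3 ± 0.347 CPM per kilobase in KO and 14.98 ± 1.998 in WT, RNASEH2C had 6.47 ± 0.591 in KO and 6.50 ± 0.254 in WT, and LSM11 had 2.57 ± 0.215 in KO and 1.91 ± 0.118 in WT. On these lengths no neighbours in either order came within 1 SD of each other. The lengths include bases under exons of other genes, 38.4% of the principal transcript for RNASEH2C. Levels over uncovered bases alone were not computed, and they could change the order. The order depends on the length used, most of all for RNASEH2B, whose annotated exons add up to 26291 bases against 1629 in the principal transcript. Over all exonic bases RNASEH2B came last of the 5 in both groups, with 0.698 CPM per kilobase in KO and 0.928 in WT. On that length SAMHD1 had 34.1 CPM per kilobase in KO and 1.90 in WT, which in WT is about level with LSM11 at 1.91, and RNASEH2C had 3.55 in KO and 3.56 in WT.

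The genes next to these 7 on the chromosome moved in both directions. Of the 14 nearest tested genes, 1 on each side, 2 were higher and 5 were lower in KO by edgeR, in all 7 of 14, where 53.5% of all genes changed. PMVK, above ADAR, was lower with a log2 fold change of -0.98, and SOGA1 and RBL1 on the sides of SAMHD1 were lower with log2 fold changes of -0.83 and -0.23. AP5B1, above RNASEH2C, was higher by 0.53. TLDC2 lies opposite SAMHD1, with 45.4% of its exonic bases in SAMHD1 exons, and had 33, 65 and 52 counts in the KO libraries, against 2, 0 and 0 in the WT libraries. Whether those are reads of TLDC2 or of SAMHD1 was not tested. DLEU1, below RNASEH2B, had 2.16 ± 0.508 CPM in KO and 3.47 ± 0.803 CPM in WT (SD, n = 3 each).

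The genes most like each enzyme were found by the distance between log2 CPM values over the 6 libraries, each gene centred on its own mean, using only genes that averaged 5 CPM or more. With KO and WT as the only groups, such a distance mostly picks genes with nearly the same fold change. Shared regulation was not tested. The nearest to SAMHD1 were OAS3 at a distance of 0.18, PARP9 at 0.21 and NLRC5 at 0.23. Their log2 fold changes were 4.14, 4.09 and 4.04, beside 4.16 for SAMHD1. The nearest to ADAR were RND3, TRIM56 and STS, each at 0.11. For RNASEH2B they were AC083843.2 at 0.12, NUFIP1 at 0.13 and WNT5A at 0.14. For RNASEH2C they were PHLPP1 at 0.075, CPNE4 at 0.081 and WBP1L at 0.092, and for LSM11 they were PPP2R2A at 0.074, SREK1IP1 at 0.091 and ZNF527 at 0.092.

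Partners of ribonuclease H2 in ribonucleotide excision repair were mostly lower. Of 16 listed genes, all tested, 10 fell and 2 rose, with a median log2 fold change of -0.35 beside 0.0011 over all genes tested. By the same test 26.3% of all genes fell and 27.2% rose. POLD2, a subunit of DNA polymerase delta, fell to 45.1 ± 3.01 CPM in KO against 90.8 ± 1.71 CPM in WT, the DNA ligase gene LIG1 fell to 35.0 ± 1.86 against 54.3 ± 1.12 CPM, and RFC5, of the clamp loader, fell to 14.6 ± 0.683 against 25.6 ± 1.83 CPM (SD, n = 3 each). The clamp gene PCNA rose to 350 ± 24.8 CPM in KO against 189 ± 2.84 CPM in WT, and the polymerase subunit gene POLD3 rose by 0.17 on the log2 scale. RNASEH1, the other cellular RNase H, did not pass, with 67.9 CPM in KO and 67.3 CPM in WT. Beside this, 17 of 17 proliferation genes fell, with a median of -0.96 and a share of counts of 0.0911% to 0.103% in KO and 0.202% to 0.212% in WT, among them TOP2A at 204 ± 8.92 CPM in KO against 547 ± 3.79 CPM in WT, MKI67, BIRC5 and MCM6. The part of proliferation in the fall of RNASEH2B was not tested.

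Around SAMHD1, genes of deoxynucleotide supply were lower more often than higher. Of 13 listed genes, all tested, 7 fell and 2 rose, with a median of -0.26, where 26.3% of all genes fell and 27.2% rose. The thymidine kinase gene TK1 fell to 38.4 ± 3.01 CPM in KO against 89.6 ± 3.63 CPM in WT, and RRM1, the large subunit of ribonucleotide reductase, fell to 55.2 ± 1.01 against 105 ± 4.34 CPM (SD, n = 3 each). The genes that rose were CMPK2, an interferon-induced nucleotide kinase, with 375 ± 3.62 CPM in KO and 0.567 ± 0.146 CPM in WT, and RRM2B, the p53-induced reductase subunit, with 131 ± 6.97 CPM in KO and 72.9 ± 3.11 CPM in WT. Cyclin A with its kinases phosphorylates SAMHD1 and lowers its antiviral activity. Of 7 regulators of this phosphorylation, 3 fell and 3 rose. CDK6, CDK1 and CCNA2 fell by 1.21, 0.59 and 0.56 on the log2 scale, while the kinase inhibitor genes CDKN1A and CDKN1B rose by 1.91 and 0.47, and PPP2R2A, a phosphatase subunit, rose by 0.43. A transcript level does not give the phosphorylation state.

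Beside TREX1, 13 of 16 listed deoxyribonucleases and TREX1 partners were tested, and 6 fell and 2 rose, with a median of -0.31. Among all genes tested 26.3% fell and 27.2% rose. The abasic endonuclease gene APEX1 fell to 144 ± 2.45 CPM in KO against 211 ± 5.91 CPM in WT, SET fell to 351 ± 3.55 against 470.4 ± 2.62 CPM, and EXO1 and PLD3 fell by 0.86 and 0.31 on the log2 scale. DNASE2, the lysosomal DNase whose loss also causes interferon production, rose by 0.25, and the mitochondrial nuclease gene EXOG rose by 0.30. Beside LSM11, 15 of 16 genes of histone pre-mRNA processing were tested, and 8 of them fell, with a median of -0.18. CPSF3, the endonuclease that cuts the histone transcript, fell to 63.8 ± 1.49 CPM in KO against 86.2 ± 3.62 CPM in WT, and SNRPB, CPSF2 and SNRPD3 fell by 0.37, 0.32 and 0.45 on the log2 scale. LSM11, which rose, moved against these 8 genes.

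Other genes linked to an inherited interferonopathy, and listed here as acting by loss, went both ways. Of 16 listed genes, all tested, 9 rose and 3 fell, with a median of 0.32, where 27.2% of all genes rose and 26.3% fell. ISG15 and USP18, which restrain interferon signalling, rose by 6.97 and 4.48 on the log2 scale, and the immunoproteasome gene PSMB9 rose by 4.96. PNPT1, whose product degrades RNA in mitochondria, rose to 408 ± 15.6 CPM in KO against 68.1 ± 4.30 CPM in WT (SD, n = 3 each). POLA1, the catalytic subunit of DNA polymerase alpha, had 18.9 ± 1.13 CPM in KO and 37.7 ± 1.19 CPM in WT (SD, n = 3 each), a log2 fold change of -0.997 (SE 0.0740) with adjusted p = 2.10e-13 (edgeR). Its fall was larger than that of RNASEH2B, with 95% intervals that do not overlap. The proteasome subunit gene PSMB4 fell by 0.57 and the coat protein gene COPA fell by 0.43. Whether a lower transcript level of any of these genes acts like a disease variant was not tested.

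**Figure D3:**
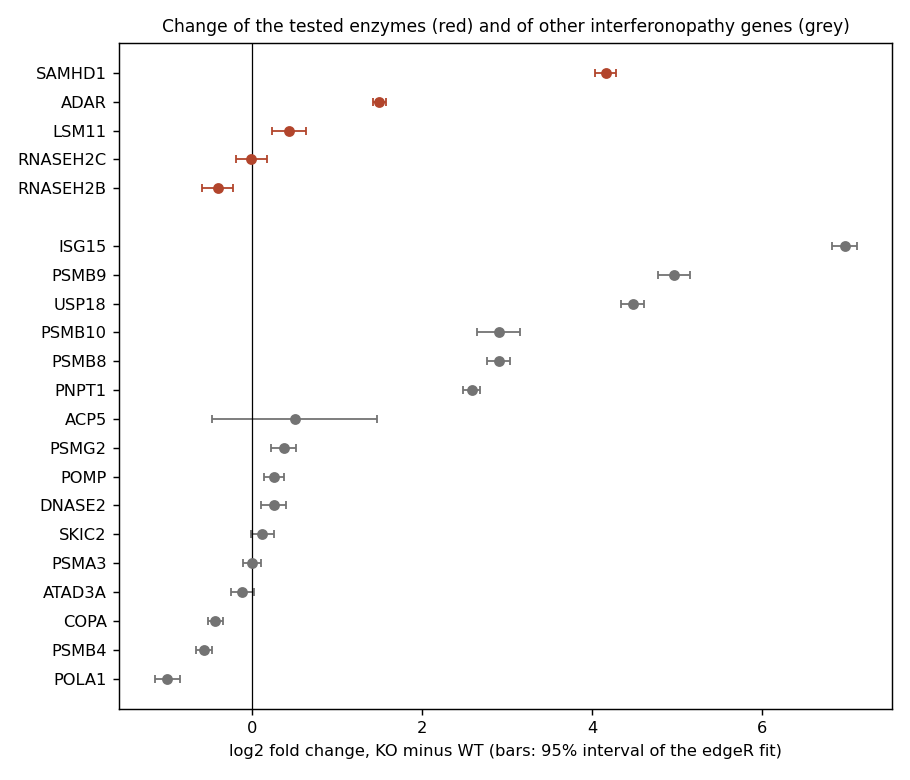
Log2 fold change, KO minus WT, of the 5 tested enzymes (red, upper) and of 16 other interferonopathy genes (grey, lower); points are edgeR estimates from 3 KO and 3 WT libraries and bars are 95% intervals. RNASEH2B lies below 0 with an interval of -0.59 to -0.22, and POLA1 lies lowest at -0.997.

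Listed sensors of RNA and DNA, with relays and other genes of these pathways, were mostly higher. Of 10 RNA sensors and relays, 9 rose and 1, the adaptor gene MAVS, fell by 0.24 on the log2 scale, with a list median of 5.202. OAS2, which makes the activator of RNase L, rose to 269 ± 5.15 CPM in KO against 0.128 ± 0.0727 CPM in WT (SD, n = 3 each), and OAS1, OAS3 and IFIH1 rose by 5.35, 4.14 and 6.84 on the log2 scale. Of 8 DNA sensors and relays 7 were tested, and 6 of them rose, with a median of 1.03. Among all genes tested 27.2% rose and 26.3% fell. IFI16 rose by 3.62, CGAS by 1.08, IKBKE by 1.03 and TBK1 by 0.41 on the log2 scale. All 18 genes of the interferon response list rose, with a median of 7.68 (7.34 with the 3 genes at 0 in every WT library set at a floor of 3 counts per library), and IFIT1, IFIT2, IFI6 and IFIT3 first by adjusted p. The rise of SAMHD1 (4.16) was close to that of OAS3 and below this median, and the rise of ADAR (1.497) was below that of each of the 18.

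**Figure D4:**
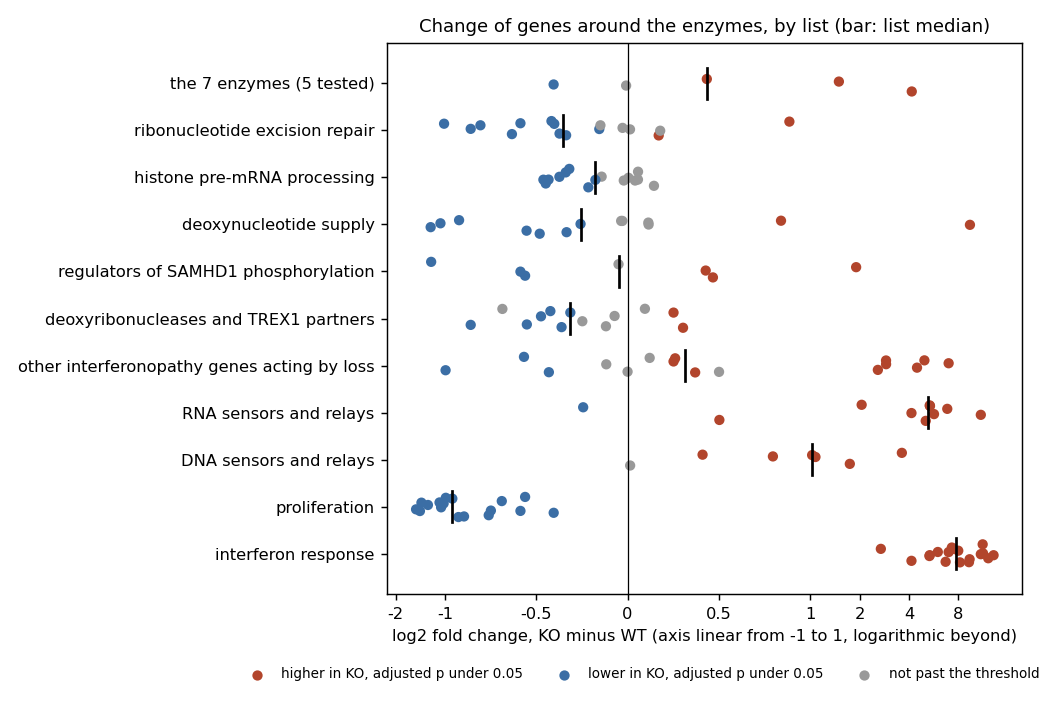
Log2 fold change, KO minus WT, of each tested gene by list, on an axis that is linear from -1 to 1 and logarithmic beyond; red points were higher and blue points lower in KO at an adjusted p under 0.05 in edgeR, grey points did not pass, and black bars are list medians. Proliferation genes all lie below 0 (median -0.96), interferon response genes all lie above 0 (median 7.68), and the 5 tested enzymes lie on both sides.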

How the data were processed

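Total RNA of A549 cells was made into libraries with an Illumina TruSeq stranded kit, per the labels' protocols. The authors deposited raw counts per Ensembl gene, 1 column per library. Per the submitters' processing notes, the build was GRCh38 and the tools included featureCounts 2.0.1, STAR 2.7.0d, Trim Galore 0.6.6 and edgeR 3.32.1. Their annotation, strand setting and treatment of reads in overlapping genes were not stated in the sources used. Groups came from sample titles. Symbols came from a symbol table, and positions, lengths and exon overlap from GENCODE 29, which may differ from the authors' annotation.

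Counts were filtered with filterByExpr, scaled with TMM factors and tested with edgeR 4.0.16 (R 4.3.3) in a quasi-likelihood fit with genotype as the only term, two-sided, with Benjamini-Hochberg adjustment over all 18505 genes tested. Standard errors come from the fold change and its F statistic. DESeq2 1.42.0, limma 3.58.1 (voom) and other scalings, filters and left-out libraries were alternatives. The scripts were tested on simulated counts. At this depth 3 counts equal 0.0735 to 0.111 CPM. Libraries of a group differed beyond sampling noise (chi-square per degree of freedom 4.2 to 6.09), so all 6 were kept.

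The 7 genes and the lists were chosen with earlier results of these data known. Named genes are the 7 genes, YTHDF1, up to 4 genes of each list with the smallest adjusted p and up to 3 called against the majority, the nearest tested and overlapping genes, and the 3 genes most alike in pattern. RNASEH1, RNU7-1, KRT8, EPCAM, CDH1, CD14, CSF1R, CD3E and PTPRC were named after their values were seen.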

Additional observations from a re-analysis of the deposited data

How the results depend on the processing

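ADAR, SAMHD1, LSM11 and RNASEH2B kept their direction and their side of the threshold under DESeq2, limma-voom, RLE factors, upper-quartile factors, library size only, both other filters, the replicate block and each left-out library; the log2 fold change ran from 1.44 to 1.52 for ADAR, from 4.10 to 4.26 for SAMHD1, from 0.38 to 0.50 for LSM11 and from -0.51 to -0.32 for RNASEH2B, whose adjusted p reached at most 0.00407. RNASEH2C passed under none, and its sign turned with library size only (0.017) and with left-out libraries (-0.076 to 0.059). With a fold of 1.5 built into the test the rise of LSM11 (0.43) no longer passed. The ribonucleotide excision repair list had 1 gene higher under DESeq2, 1 under upper-quartile factors, 1 with no filter and 1 to 2 without 1 library. Without 1 library, the log2 ratio difference ran from -0.98 to 0.32 for RNASEH2A to RNASEH2B and from -1.38 to 0.021 for RNASEH2A to RNASEH2C, so neither has a direction; the cause was not tested. Changed genes numbered 9059 to 10021 over all settings, against 9893. Same-numbered libraries did not deviate together (correlations of at most 0.026 in size), so the numbers give no pairing; the replicate block gave 9703 changed genes and -0.40 for RNASEH2B. Lengths over all exonic bases, an alternative added after seeing the data, moved levels per kilobase and put RNASEH2B last of the 5 tested genes. Counts limit RNASEH2A, which entered a test only with no filter and did not pass, and TREX1, which has none.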

Other observations

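PRDX2, the nearest tested gene below RNASEH2A and 4697 bases from it, encodes an abundant peroxiredoxin of most cells. It had 18, 44 and 17 counts in the KO libraries, against 10, 12 and 22 counts in the WT libraries, although GENCODE 29 places exons of other genes over only 14.1% of its exonic bases, all on the opposite strand. PRDX2 was thus nearly empty in this table with little overlap in GENCODE 29, which may differ from the annotation behind the counts. The cause was not tested.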
